A study of Mus musculus with 2 samples.

Results

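SRCAP regions whose midpoint lay over 1000 bp and up to 2000 bp from the nearest transcription start site (TSS) are described here. Peaks called in each of 2 CUT&Tag replicates were pooled and merged where they overlapped, mitochondrial peaks were dropped, and every merged region was given its distance to the nearest TSS of any transcript annotated in GENCODE mouse release 21 on mm10. The rule kept 613 of 15653 regions (3.92%, 95% Wilson interval 3.62 to 4.23%), and these are called members in what follows. Of the members, 284 lay upstream of their nearest TSS and 329 downstream of it. The other regions comprised 7835 within 1 kb of a TSS, 1111 at 2 to 5 kb and 6094 over 5 kb away.

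The cells were SYAT cells, derived from CGR8 mouse embryonic stem cells (mESCs), in which both Srcap alleles carry the fluorescent protein YPet with an auxin-inducible degron and OsTir1, the plant receptor for auxin, is stably expressed. Both samples belong to the control condition (SYAT NT), kept in serum and LIF with auxinole, an inhibitor of the auxin receptor that limits basal degradation. The tagged protein was mapped by CUT&Tag, in which an antibody to GFP (abcam ab290) tethers the Tn5 transposase to it, with Drosophila nuclei and an antibody to H2Av as spike-in. The labels call the samples duplicates, and the study states of its experiments in general that replicates came from cultures grown and treated separately. With 1 group, 2 replicates and no control library analysed here, nothing was tested between conditions, and every value describes these peak lists.

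SRCAP is the ATPase of a remodeling complex that takes H2A-H2B dimers out of nucleosomes and puts H2A.Z-H2B dimers in their place. In mESCs, H2A.Z marks the nucleosomes on both sides of active and bivalent promoters and many enhancers. Most mammalian promoters lie in CpG islands, stretches in which the CG pair, elsewhere depleted through methylation and deamination of its cytosine, is kept at high frequency.

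To show how widely the sequence of members varies, 4 of those called in both replicates are printed, 2 from each side of the TSS, chosen after their values were seen. They were read from the RefSeq copy of GRCm38.p6, the assembly of mm10, as the 300 bp around the midpoint on the plus strand, and CG pairs are in capitals. The region upstream of Fbxo11 (chr17:88066212-88066511) and the one downstream of Klf1 (chr8:84903147-84903446) hold 12 and 29 CG pairs. The region upstream of Cpeb4 (chr11:31870510-31870809) holds 19 CG pairs, unevenly spread over the window. Aida (chr1:183299222-183299521), whose member had the highest score of replicate 1 among those under 50% soft-masked (repeats in the assembly), has only 6 CG pairs there.
Fbxo11: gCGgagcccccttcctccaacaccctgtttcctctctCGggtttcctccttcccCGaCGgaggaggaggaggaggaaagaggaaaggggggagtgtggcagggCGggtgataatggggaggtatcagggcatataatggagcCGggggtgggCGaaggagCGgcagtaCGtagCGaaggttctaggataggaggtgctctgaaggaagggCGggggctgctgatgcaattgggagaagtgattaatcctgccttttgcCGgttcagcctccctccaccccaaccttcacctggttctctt
Cpeb4: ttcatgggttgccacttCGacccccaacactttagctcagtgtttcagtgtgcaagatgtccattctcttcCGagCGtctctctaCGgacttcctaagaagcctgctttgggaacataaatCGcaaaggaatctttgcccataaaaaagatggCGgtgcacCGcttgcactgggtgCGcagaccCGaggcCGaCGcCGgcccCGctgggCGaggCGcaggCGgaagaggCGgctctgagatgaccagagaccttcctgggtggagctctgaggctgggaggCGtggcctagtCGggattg
Aida: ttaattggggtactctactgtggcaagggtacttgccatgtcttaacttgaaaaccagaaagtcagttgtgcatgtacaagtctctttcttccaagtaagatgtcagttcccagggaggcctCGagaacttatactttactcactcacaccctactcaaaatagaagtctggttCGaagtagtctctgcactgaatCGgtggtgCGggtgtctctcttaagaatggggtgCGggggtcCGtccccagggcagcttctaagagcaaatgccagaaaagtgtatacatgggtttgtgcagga
Klf1: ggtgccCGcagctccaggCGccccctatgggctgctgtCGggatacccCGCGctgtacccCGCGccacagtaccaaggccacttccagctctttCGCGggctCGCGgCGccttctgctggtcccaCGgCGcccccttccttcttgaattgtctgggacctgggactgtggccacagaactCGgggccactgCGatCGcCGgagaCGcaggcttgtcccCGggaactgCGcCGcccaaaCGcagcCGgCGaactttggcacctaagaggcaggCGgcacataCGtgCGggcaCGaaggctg
A dense run of CG pairs such as that of Klf1 was therefore not common to these members.

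Members were somewhat denser than regions farther from genes and far less dense than regions at promoters. Per Mb of all sequence at that distance from a TSS, there were 4.62 members (exact Poisson interval 4.26 to 5.00; 133 Mb), against 48.7 regions within 1 kb and 3.47 (3.27 to 3.68) at 2 to 5 kb. Over the whole genome the density was 5.91 regions per Mb. These values depend on the list: regions covered in replicate 1 had densities at 1 to 2 kb of 1.45 per Mb upstream and 1.53 downstream, and those covered in replicate 2 had 3.42 and 3.95. At 2 to 5 kb the values were 1.04 and 1.24 in replicate 1 and 2.45 and 2.87 in replicate 2, so members were the denser on both sides in each list. Members made up 2.26% of regions when peaks with a score under 50 were dropped, and 2.22% when start sites of protein-coding transcripts alone were counted. In steps of 200 bp on the upstream side, density fell from 118 per Mb at the TSS to 6.36 between 800 and 1000 bp, and members held 5.11 in the first step past 1000 bp and 3.99 in the last. On the downstream side it fell from 152 to 6.67 per Mb over the same steps, and members held 6.45 in the first step and 4.5 in the last. The steep part of the decline was thus over before the near bound of the members. Just outside that bound, between 900 and 1000 bp, 77 regions lay, 6 of them in both replicates, with a median GC of 55%. Just inside, between 1000 and 1100 bp, were 78 members, 12 in both replicates, with a median GC of 56.9%. At the far bound, 50 members lay between 1900 and 2000 bp (10 in both replicates) and 45 regions between 2000 and 2100 bp (3 in both).

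**Figure D1:**
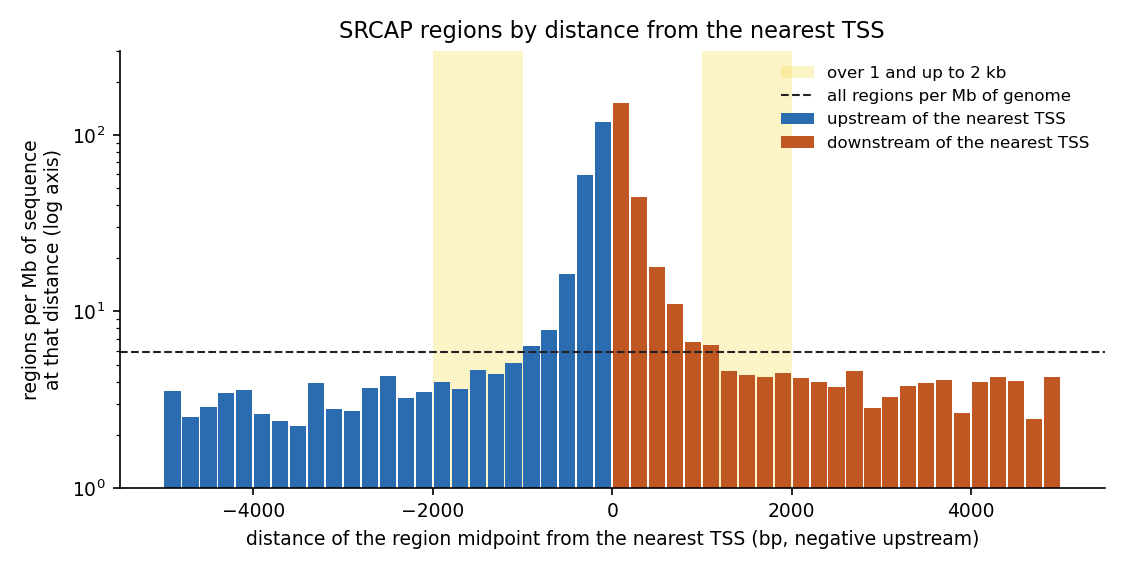
Density of merged SRCAP regions, in regions per Mb of sequence at that distance on a log axis, against the signed distance of the midpoint from the nearest TSS in steps of 200 bp. The shaded bands mark the members, which sit at 3.65 to 6.45 per Mb, near the values out to 5 kb, while the steps beside the TSS reach 118 upstream and 152 downstream; the dashed line is the genome mean of 5.91.

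Upstream and downstream members did not differ in density beyond counting error. There were 4.38 upstream and 4.85 downstream members per Mb, a ratio of 0.902 (interval from counting error 0.770 to 1.06). Separate values for regions covered in replicate 1 and in replicate 2 were 0.945 (0.716 to 1.25) and 0.866 (0.725 to 1.03). All 3 intervals include a ratio of 1. When members of at least 50% soft-masked sequence and the soft-masked sequence itself were left out, the ratio was 0.834 (0.702 to 0.991), whose interval does not include it. Repeats were unevenly spread between the sides, with 58 of 284 upstream members (20.4%, 16.1 to 25.5%) and 29 of 329 downstream members (8.81%, 6.21 to 12.4%) at least 50% soft-masked, against 17.4% of all regions.

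Few members were called in both replicates. Of the 613, 75 (12.2%, 9.87 to 15.1%) were covered in both, 123 in replicate 1 alone and 415 in replicate 2 alone, whereas 21.9% of all regions were covered in both. The share was 11.3% upstream (32 of 284) and 13.1% downstream (43 of 329), with overlapping intervals of 8.10 to 15.5% and 9.85 to 17.1%. Within 1 kb of a TSS it was 29.7% (28.7 to 30.7%), at 2 to 5 kb 9.99% (8.36 to 11.9%) and beyond 5 kb 15.2% (14.3 to 16.1%). Taken list by list, 200 of 6152 nuclear peaks of replicate 1 and 487 of 12952 of replicate 2 lay at this distance, or 3.25% and 3.76% (mean 3.51% ± 0.360, SD, n = 2). The lists hold no read numbers, so the depth behind the difference in list length is unknown. Of the members at least 50% soft-masked, 20 of 87 (23.0%, 15.4 to 32.9%) were in both replicates, which is near the share over all regions. Of the rest, 55 of 526 were (10.5%, 8.12 to 13.4%), while over all regions under 50% soft-masked the share was 21.4%. A CpG-rich window did not go with a higher share, at 6 of 66 (9.09%, 4.23 to 18.4%) against 69 of 547 (12.6%, 10.1 to 15.7%).

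Scores of members were low within each list. The score was read, from its minimum, as 10 times the −log10 of the q-value of the peak caller. On that reading the lowest score of 13 stands for a q-value of 0.05. The level of scores in 1 list cannot be set against the other list, since depth is unknown. In replicate 1 the members had a median score of 27 (range 13 to 807, 198 members), and 118 of them (59.6%, 52.6 to 66.2%) fell in the lower 50% of that list. In replicate 2 the median was 30 (range 13 to 1078, 490 members) and 306 (62.4%, 58.1 to 66.6%) fell in the lower 50% of the list. Regions within 1 kb of a TSS fell there less often, in 41.8% and 38.6% of cases, and those at 2 to 5 kb about as often, in 65.7% and 64.0%. Members covered in both replicates stood higher, with median scores of 37 and 48 against 24 and 28 for those in a single list. Their median width was 488 bp against 310.5 bp, and over all regions it was 545.5 bp against 327 bp. A region in both lists joins overlapping peaks and is wider by construction. Across the 75 members in both lists, scores of the replicates had a Spearman's rho of 0.26 and a Pearson's r of log10 scores of 0.55, beside 0.42 and 0.52 across all 3434 regions in both lists. Across the 55 of these members that were under 50% soft-masked the values were 0.19 and 0.27.

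**Figure D2:**
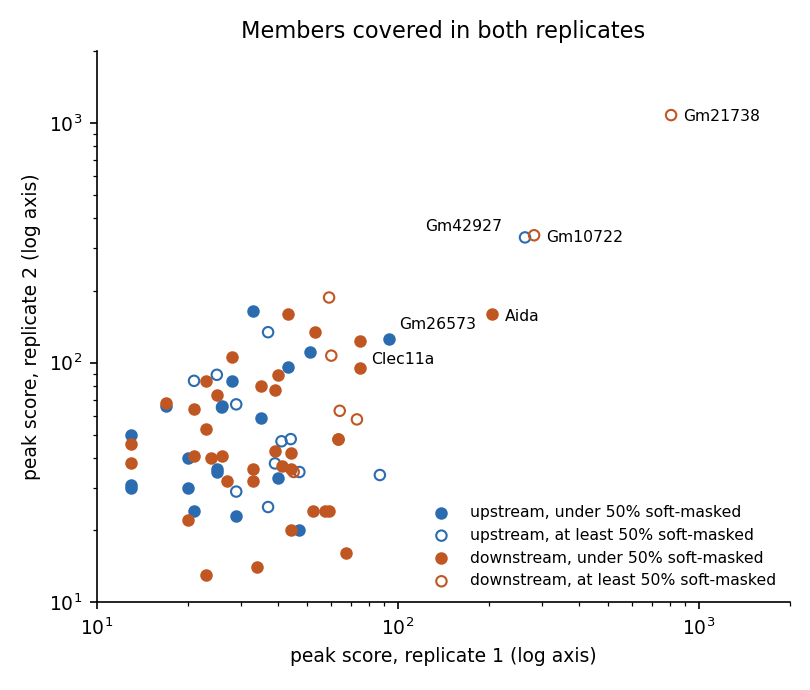
Peak scores in replicate 1 and replicate 2, both on log axes, of the 75 members covered in both replicates, in blue upstream and in orange downstream, with open circles for members at least 50% soft-masked. The 3 points farthest to the upper right are repeat-rich members nearest to Gm21738, Gm10722 and Gm42927, and Aida lies at scores of 205 and 159.

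Members were GC-rich compared with the sequence around them, but less so than promoter regions. In the 500 bp around the midpoint, median GC was 54.0% (quartiles 49.2 and 59.6%, range 33.0 to 76.2%), while all sequence at the same distance from a TSS had a median of 43.2%, and 569 members (92.8%, 90.5 to 94.6%) were above that value. It was 62.4% for regions within 1 kb and 52.8% at 2 to 5 kb. Computed from each list alone, the median was 54.8% in replicate 1 and 54.2% in replicate 2 (mean 54.5% ± 0.424, SD, n = 2). The ratio of observed to expected CG pairs, which is 1 where they are as frequent as base content predicts, had a median of 0.362 in members, 0.721 within 1 kb, 0.276 at 2 to 5 kb and 0.169 in all sequence at 1 to 2 kb. Downstream members had a somewhat higher median ratio than upstream ones, 0.388 against 0.322, and a higher GC of 54.8% against 52.9%. Outside coding exons the GC was 53.2% against 52.2%, and among members in both replicates the order turned, with 57.6% downstream and 58.1% upstream.

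At equal GC content, the density of members did not differ from that of regions at 2 to 5 kb beyond counting error. Regions within 1 kb were denser than both in every class of GC but 40 to 45%. In windows of 55 to 60% GC there were 28.5 members per Mb (23.9 to 33.8), 29.4 regions per Mb at 2 to 5 kb (25.8 to 33.3) and 129 per Mb within 1 kb (123 to 136). In windows of 60 to 65% GC the values were 124 (101 to 151), 115 (96.8 to 136) and 419 (401 to 437). Windows under 40% GC, which make up 31.0% of the sequence at 1 to 2 kb, held 9 members, or 0.219 per Mb (0.100 to 0.416). Regions within 1 kb had 0.651 per Mb (0.417 to 0.968) in that class. The density of members therefore rose with GC throughout, and in each of the 7 classes of GC its interval overlapped that of the regions at 2 to 5 kb. By the ratio of CG pairs the picture was similar, except between 0.4 and 0.6, where members reached 22.3 per Mb (19.0 to 26) and regions at 2 to 5 kb 14.6 (12.7 to 16.7). No library without antibody was analysed here, and the part that the GC preference of the libraries has in these values was not tested.

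**Figure D3:**
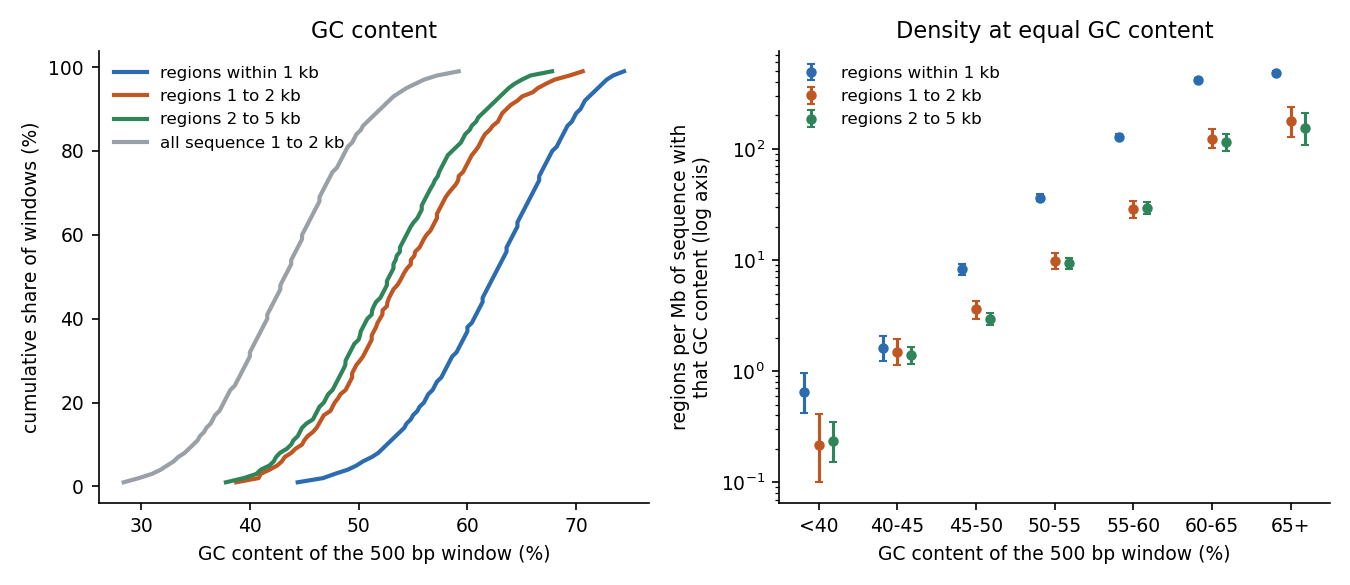
Left, cumulative share of 500 bp windows against their GC content for regions within 1 kb, members at 1 to 2 kb, regions at 2 to 5 kb and all sequence at 1 to 2 kb. Right, regions per Mb of sequence with that GC content on a log axis, with 95% exact Poisson intervals. The members rise from 0.219 per Mb under 40% GC to 177 at 65% and above. They lie beside the regions at 2 to 5 kb, and clearly below those within 1 kb in every class but 40 to 45%.

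Sequence of the CpG island type was less common in members than in promoter regions and more common than in regions farther away. Where members held it, the window at the nearest TSS mostly missed the same cutoffs. Whether such sequence continued into a promoter was not tested. A window was called CpG-rich at a GC of at least 55% and a ratio of at least 0.65, which 66 members met (10.8%, 8.55 to 13.5%), against 31.6% of all regions, 58.5% of those within 1 kb and 0.335% of all sequence at 1 to 2 kb. At 2 to 5 kb the share was 6.75% (5.42 to 8.38%) and beyond 5 kb 3.68% (3.23 to 4.18%). Per Mb of CpG-rich sequence there were 149 members, and per Mb of other sequence 4.14. Of the 66, 19 had a nearest TSS that was itself CpG-rich and 47 did not. Conversely, 85 members with a window that was not CpG-rich lay beside a CpG-rich TSS, and for 462 (75.4%, 71.8 to 78.6%) neither was CpG-rich.

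The name flanking implies a promoter region with SRCAP beside the member, and this was seldom present. Another region had its midpoint within 1 kb of the same TSS for 41 members (6.69%, 4.97 to 8.95%), of which 18 were upstream and 23 downstream. From the list of replicate 1 alone, without replicate 2, the share was 1.50%, without replicate 1 it was 5.13%, and with start sites of protein-coding transcripts only it was 12.4%. No such pair was left at scores of at least 50. Sequence whose nearest TSS has such a region makes up 9.80% of what lies at 1 to 2 kb, and members had a density of 3.16 per Mb there against 4.78 per Mb elsewhere. In only 5 cases was the other region covered in both replicates; these members, nearest to Gm10721, Kcnn2, Xrn2, H60b and Mob3b, are named after their values were seen. The gap between member and other region had a median of 746 bp (88 to 1698 bp), and it was 500 bp or less in 12 of the 41. Where the TSS was CpG-rich, 22 of 104 members (21.2%, 14.4 to 30%) had another region beside them, against 19 of 509 (3.73%, 2.40 to 5.76%) where it was not. Counted by single annotated start positions, regions lay within 1 kb of 52.0% of those that were CpG-rich and 8.25% of the others. Each alternative start of a promoter counts there, so these shares cannot be set against the shares of members. Counting every TSS of the gene, 133 of the 377 members nearest to a protein-coding gene (35.3%) belonged to a gene with a region within 1 kb of a TSS, which is near the 34.3% of all 21938 protein-coding genes. The member's own edge lay within 1000 bp of the TSS in 144 cases (23.5%, 20.3 to 27.0%), and these are not counted above unless a separate region was called. For most members the rule thus marks a distance from an annotated start and not the flank of a promoter called as a separate region.

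Coding exons took a larger share of members than of the sequence on both sides of the TSS. Upstream, 138 of 284 midpoints were intergenic (48.6%, 42.8 to 54.4%) and 116 intronic (40.8%), close to the 49.4% and 45.1% of all upstream sequence at this distance. Of the upstream members, 15 lay in coding exons (5.28%, 3.23 to 8.53%), against 1.62% of the sequence. Downstream, 170 of 329 were intronic (51.7%, 46.3 to 57.0%, against 62.2% of the sequence) and 64 lay in coding exons (19.5%, 15.5 to 24.1%, against 3.52%). Relative to the transcript that starts at the nearest TSS, 108 downstream members were in intron 1, 53 in exon 1, 28 in exon 2, and 94 beyond its end. Coding exons held 23.0 members per Mb over both sides (18.2 to 28.7), introns 4.01 and intergenic sequence 4.01. Coding exons at this distance are also richer in GC, with a median of 51.2% against 43.6% for introns and 42.0% for intergenic sequence. Within windows of at least 60% GC, coding exons held 131 members per Mb (97.1 to 172), introns 108 (78.4 to 146) and intergenic sequence 263 (183 to 366). Between 55 and 60% GC the order was intergenic sequence with 62.4 per Mb, introns with 24.1 and coding exons with 21.3. Between 50 and 55% GC, coding exons held 15.5 per Mb (8.03 to 27.1) and introns 8.26 (6.51 to 10.3). In none of the 5 classes of GC did coding exons exceed both other features by more than the counting intervals.

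**Figure D4:**
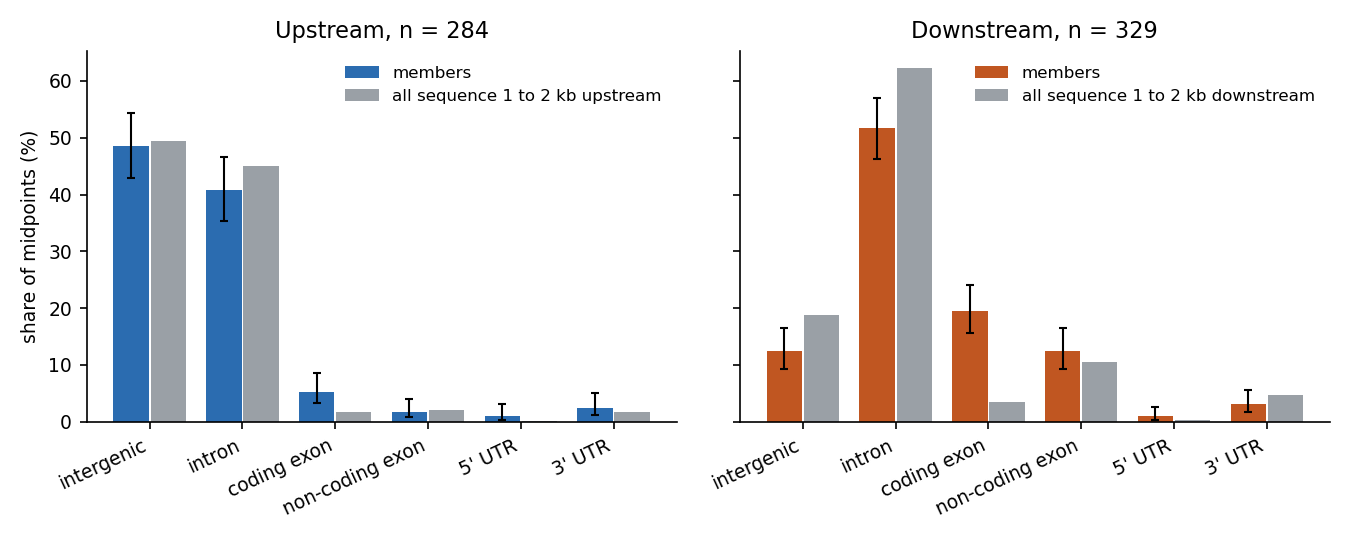
Share of midpoints in each annotated feature, in percent, for 284 upstream (blue) and 329 downstream (orange) members with 95% Wilson intervals, and for all sequence at 1 to 2 kb on the same side (grey). Coding exons take 19.5% of downstream members and 3.52% of the downstream sequence, and 5.28% of upstream members and 1.62% of the upstream sequence.

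Members were spread over many genes. They had 606 nearest genes, 7 of which had 2 members and none more, and no TSS had a member on each side. The nearest TSS belonged to a protein-coding gene for 377 members (61.5%, 57.6 to 65.3%), to a pseudogene for 88 (14.4%) and to another class of RNA for 148 (24.1%). Corrected for the sequence that each class occupies at this distance, members had a density of 5.06 per Mb at protein-coding, 4.79 at long non-coding and 3.50 at pseudogene starts. The share at protein-coding genes was 60.9% upstream and 62.0% downstream.

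Among members in both replicates that were under 50% soft-masked and nearest to a protein-coding gene (14 upstream and 22 downstream), 8 from each side are described, those for which the larger of the ranks in both lists was smallest. Ranks count from the highest score and were not scaled to the length of the list, so that the longer list of replicate 2 weighs more in this choice. The region 1071 bp upstream of Fbxo11 (chr17:88066172-88066551), which encodes a substrate receptor of an SCF ubiquitin ligase, scored 51 in replicate 1 and 111 in replicate 2. Next came a region 1255 bp upstream of Rpl36 (chr17:56611990-56612331), a protein of the large ribosomal subunit, with scores of 43 and 96. The start sites of both genes are CpG-rich, with a ratio of CG pairs of 0.956 and 0.738. A region 1551 bp upstream of Cpeb4 (chr11:31870385-31870935), which encodes a protein binding cytoplasmic polyadenylation elements, scored 35 and 59, and its own window was CpG-rich (GC 60.8%, ratio 0.736) while that of the TSS was not (37.6%, 0.283). The member of Pdpk1 (chr17:24151953-24152490), the kinase that activates AKT, scored 33 and 165 at 1298 bp. Thus the order of these regions differed between the lists, with Pdpk1 at rank 2880 in replicate 1 and rank 150 in replicate 2.

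The other 4 upstream regions chosen in this way scored 17 to 26 in replicate 1. Gbf1, an exchange factor for ARF at the Golgi, had a member 1108 bp upstream (chr19:46244694-46245265) with scores of 26 and 66 and a low GC of 44.8%. For Synj2, an inositol phosphatase, the member at 1850 bp (chr17:6005523-6005937) scored 17 and 66. That of Rad21l, a meiotic cohesin subunit, scored 20 and 40 at 1683 bp (chr2:151669922-151670510) with a GC of 64.4%. Of the 8 upstream regions described, that of Synj2 lay farthest from its TSS. The member of Arhgap23 scored 25 and 35 at 1140 bp (chr11:97489836-97490172). Of these 8 upstream regions, 5 were intergenic and 3 intronic, and none had another region within 1 kb of the same TSS.

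Downstream, the member ranked first in this way lay 1802 bp into Aida (chr1:183299168-183299575), which encodes an interactor of axin. It scored 205 and 159, rank 30 in replicate 1 and rank 174 in replicate 2, in intron 2, and its GC of 45.2% was among the lower values of members. The 500 bp window of this member holds unresolved bases (N in the assembly), which the GC leaves out. Clec11a, a secreted growth factor with a lectin domain, had a member of 926 bp in intron 3 (chr7:44304644-44305569) with scores of 75 and 123. A member of 1775 bp nearest to B430305J03Rik (chr3:61363118-61364892) scored 75 and 95. It lies in exon 1 of that gene and, on the opposite strand, in the annotated 5′ UTR of Rap2b, a small GTPase of the Ras family, so the signal cannot be assigned to either gene. Klf1, the erythroid transcription factor, had a member in coding exon 2 (chr8:84903079-84903515) with scores of 53 and 134, a GC of 70.4% and a ratio of 0.857.

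Peg10, an imprinted gene derived from a retrotransposon, had a member 1819 bp downstream in intron 1 (chr6:4749026-4749424) with scores of 43 and 159. The member of Stx1a, a syntaxin of synaptic vesicle fusion, scored 40 and 89 in intron 3 (chr5:135042005-135042655). For Camk2g, a calmodulin-dependent kinase, the scores were 39 and 77 at 1994 bp (chr14:20737192-20737553), close to the far bound. Its midpoint is in exon 3, which a further transcript of the gene annotates as 3′ UTR. Gpr149, an orphan receptor, had a member in coding exon 1 (chr3:62603943-62604249) that scored 35 and 80. Among these 16 regions of both sides, Fbxo11, Rpl36, Aida and Peg10 alone had a CpG-rich nearest TSS.

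Without the limits on repeats and gene class, the highest scores belonged to repeat sequence. A region of 3914 bp at Gm21738 (chr14:19415728-19419641, 84.0% soft-masked) scored 807 and 1078, and one of 3915 bp at Gm10722 (chr9:3000118-3004032, 97.3%) scored 283 and 340. Both contain the TSS they are nearest to, and they are the only members that do, because their width places the midpoint over 1000 bp away. The member of Gm42927, a processed pseudogene, was 100% soft-masked and scored 264 and 333. D030045P18Rik, a lincRNA, likewise had a fully soft-masked member, with scores of 59 and 187. How uniquely reads map to such sequence was not tested, and single copies of a repeat family cannot be told apart where their sequence is the same. Over all members, 172 (28.1%) held no soft-masked base.

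Of the gene lists that were compared, the pluripotency network had the highest share of genes with a member. It was 6 of 35 genes (17.1%), none in both replicates, beside 372 of 21938 protein-coding genes (1.70%), 44 of whose 377 members were in both replicates. Pou5f1, which encodes OCT4, had a region 1044 bp upstream (chr17:35504852-35505095) that was called in replicate 2 only, with a score of 29. Trim28, a corepressor of retroelements, had one 1007 bp upstream (chr7:13023020-13023269) in replicate 1 only, with a score of 26. Both lie near the 1000 bp bound. Rif1, a regulator of replication timing, had a member 1583 bp upstream (chr2:52071104-52071393) with a score of 35, and Fgf5, a marker of primed cells, had one in intron 1 (chr5:98255873-98256264) with a score of 37, both in replicate 2 only. These scores are near the median of members in that list.

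Lineage genes had 3 members among 44 genes (6.82%), all upstream and called in replicate 2 only. Of these, Meis1, a homeobox factor, scored 66 at 1816 bp and Nodal, a ligand of the TGF-beta family, scored 18 at 1492 bp. The ratio of CG pairs around the start site was 0.671 for Meis1 and 0.254 for Nodal. Signalling genes had 2 members among 47 genes: Dusp6, the phosphatase that limits ERK, at 1598 bp upstream with a score of 43 in replicate 2 and a ratio of CG pairs of 0.958, and Fzd1, a receptor of WNT ligands, in coding exon 1 with a score of 15 in replicate 1. Cytosolic ribosomal proteins had 2 among 79 genes, Rpl36 in both replicates and Rps19 in replicate 2 (score 36). Among Polycomb and H3K4 methylation genes there was 1 in 36, Pcgf6, in replicate 2 with a score of 14.

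Zinc finger genes named Zfp had 10 members among 391 genes (2.56%), 3 upstream and 7 downstream, and 1 of them was in both replicates. That member, at Zfp442, was 95.4% soft-masked and scored 26 and 65. Zfp358 scored 43 in replicate 2 in coding exon 1, Zfp986 scored 35 in replicate 1 and Zfp644 scored 35 in replicate 2, both in intron 1. Members at these genes therefore differed in place and list. Olfactory receptor genes, which are expressed mainly in sensory neurons, had 8 members among 1135 genes (0.705%), 2 of them in both replicates. These were Olfr1431 (scores 25 and 89, 85.3% soft-masked) and Olfr982 (scores 26 and 41, no soft-masked base, in coding exon 1). Olfr1166 scored 98 in replicate 2 with 96.9% soft-masked sequence, and Olfr924 scored 31. The lists hold chosen genes and not every gene of a class. No member was nearest to a gene of the lists for the SRCAP complex with H2A.Z, the EP400-TIP60 complex, other remodelers, DNA methylation, the cell cycle, the Hox clusters or the clustered histones, and these lists hold 12 to 67 genes each, too few for a count of 0 to differ from the 1.70% of all protein-coding genes. Regions within 1 kb were found for 41.7 to 66.7% of the genes in all of these lists but the Hox clusters, where the share was 5.13% (2 of 39), beside 34.3% of all protein-coding genes. Smarcad1, a remodeler of the SNF2 family that is not in the list of other remodelers and was looked up after its values were seen, had a fully soft-masked member 1006 bp upstream with scores of 41 and 47.

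Short fixed motifs were counted on both strands in the 300 bp around the midpoint, and the same was done for all sequence at 1 to 2 kb. The GC box GGGGCGGGG of SP and KLF factors was in 27 members (4.40%, 3.04 to 6.33%) and in 0.658% of windows of that sequence, beside 13% of regions within 1 kb. For the CTCF core AGGGGGC, which can overlap a GC box, the shares were 9.46% (58 members, 7.39 to 12.0%), 2.93% and 13.5%. The E-box CACGTG was in 47 members (7.67%, 5.81 to 10.0%), 3.29% of the windows and 7.40% of regions within 1 kb. All 3 are GC-rich words, and members are GC-rich windows, but the part that base content has in these shares was not tested. Motifs common at promoters were less frequent in members than within 1 kb: the ETS core CCGGAAGT was in 3 (0.489%, 0.167 to 1.43%) against 4.47%, and the NRF1 core GCGCATGCG was in 2 (0.326%, 0.0895 to 1.18%) against 2.04%.

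The YY1 core AAGATGGCG was in 12 members (1.96%, 1.12 to 3.39%), beside 0.185% of all windows at this distance. It was in 2.17% of regions within 1 kb, 2.16% of those at 2 to 5 kb and 4.85% of all regions, so members did not stand out among SRCAP regions. Of the 12, 11 were at least 50% soft-masked and 6 were in both replicates. The exception was the member upstream of Cpeb4, where the word can be read in the printed sequence ahead of the dense run of CG pairs. AT-rich words were at or below their share of the sequence: the TATA box TATAAAA was in 24 members (3.92%, 2.64 to 5.76%) against 9.57% of windows, and the SOX core CATTGTT in 22 (3.59%, 2.38 to 5.37%) against 5.21%. The octamer ATGCAAAT of OCT4 was in 12 (1.96%, 1.12 to 3.39%) against 2.00%, and the site TCAAGGTCA of ESRRB in 3 (0.489%) against 0.805%. Over all SRCAP regions the shares were 2.55% for the TATA box, 2.78% for the SOX core, 1.44% for the octamer and 0.466% for the ESRRB site. None of these was above the share in members. The CCAAT box of NFY was in 190 members (31.0%, 27.5 to 34.8%) against 36.7% of windows, with 36.6% upstream (31.2 to 42.4%) and 26.1% downstream (21.7 to 31.1%). It was the most frequent of the 11 words, and also the shortest. A match describes the letters only and does not show that a factor is bound.

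**Figure D5:**
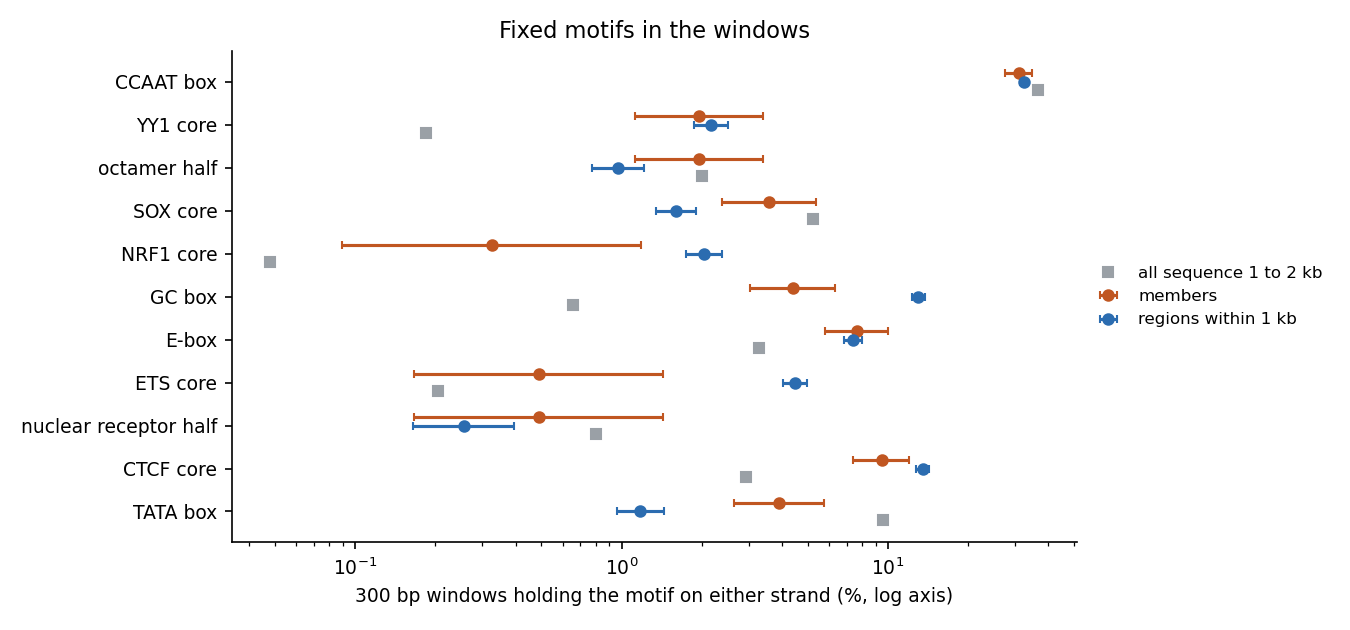
Share of 300 bp windows holding each fixed motif on either strand, in percent on a log axis, for the 613 members (orange) and regions within 1 kb (blue) with 95% Wilson intervals, and for all sequence at 1 to 2 kb from a TSS (grey squares). The GC box, CTCF core, E-box and YY1 core lie above the grey squares in members, and the TATA box lies below.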

How the data were processed

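For each SYAT NT replicate, the authors deposited a list of CUT&Tag peaks with coordinates and a score. The submitters' processing notes name mm10, dm6, STAR, Picard and MACS2. The study's methods, in a section on ChIP-seq and CUT&Tag that is worded for ChIP-seq libraries, describe end-to-end STAR mapping of uniquely placed reads, removal of duplicates and of reads off the nuclear chromosomes with Picard, downsampling to equal Drosophila read numbers, MACS2 calling on read pairs and exclusion of blacklisted regions. As each list holds 6 mitochondrial peaks, which of these steps apply to them is not given in the sources used here. The deposited score was a whole number from 13 upward and was read as 10 times the −log10 q-value, from its minimum of 13 at a q-value of 0.05. The lists give no read numbers or fold enrichment, so depth is unknown. Lists of 6158 and 12958 peaks, less 6 mitochondrial peaks each, were merged at any overlap. Where transcripts differ, features were assigned to midpoints in the order 5′ UTR, 3′ UTR, coding exon, non-coding exon, intron, intergenic. GC and CG pairs were measured in 500 bp and motifs in 300 bp around the midpoint, and the same was done every 100 bp for all sequence that the distance rule admits. The nearest gene at a shared TSS was the protein-coding one. Intervals are 95% Wilson intervals for shares and exact Poisson intervals for densities, and cover counting error only. Neighbouring regions are not independent replicates.

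Named regions were, on each side, the 8 members in both replicates, under 50% soft-masked and nearest to a protein-coding gene whose larger rank of both lists was smallest, and up to 4 members of each of 14 gene lists, those in both replicates first and then by score. The members and lists were chosen with earlier results of these data known. Alternatives covered leaving out each replicate, a minimum score of 50, merging of peaks under 500 bp apart, protein-coding transcripts, repeats, the region edge, the overlap rule, equal list lengths and the window. The code was tested on simulated regions with known distances. Versions were scipy 1.17.1, pandas 2.3.3, numpy 2.4.6, matplotlib 3.10.9 and Python 3.11.15. The values of 1 gene are not reported here.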

Additional observations from a re-analysis of the deposited data

How the results depend on the processing

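Of 43 recomputed values, 24 stayed within the counting interval or spread of the value reported and 19 moved beyond it. The share of regions at 1 to 2 kb (3.92%) was 3.25% to 3.76% when a replicate was left out, 2.26% at a score of at least 50, 2.22% with protein-coding transcripts only and 3.53% by the nearest edge. The upstream share (46.3%) was 45.6% to 47.5% without a replicate and 41.2% at a score of at least 50. The share in both replicates (12.2%) was 9.62% when 50% of both peaks had to overlap and 15.4% with lists of equal length, where all regions had 27.2%. Median GC (54.0%) was 54.2% to 54.8% without a replicate, 56.8% at a score of at least 50, 57.0% with protein-coding transcripts, 54.8% without regions at least 50% soft-masked and 51.7% in 1000 bp windows. The share with another region beside the same TSS (6.69%) was 1.50% to 5.13% without a replicate, 0% at a score of at least 50 (97 members), 4.83% when peaks under 500 bp apart were merged and 12.4% with protein-coding transcripts. The ratio of upstream to downstream density (0.902) was 0.876 to 0.946 without a replicate, 0.734 at a score of at least 50, 0.788 without regions at least 50% soft-masked, and 0.834 in sequence that is not soft-masked. Fewer regions enter where a replicate or low scores are left out, and fewer start sites with protein-coding transcripts. For the other changes the cause was not tested.

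The share in both replicates has no value when a replicate is left out. No paired analysis was possible because both replicates belong to 1 group. Depth is unknown, so no difference in score level or list length between replicates was tested.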

Other observations

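The members that had another region within 1 kb of the same TSS, and the genes with 2 members, were looked at one by one, and the regions named here were chosen after their values were seen. Among the former, 2 of 41 were covered in both replicates, at Msl3l2 (scores 27 and 32, 1074 bp downstream, 194 bp from the other region) and at Gm34730 (scores 41 and 37, 1027 bp downstream, 652 bp from it). The closest pair was at Cacna1b, a subunit of a neuronal calcium channel, where the gap was 88 bp and the member was called in replicate 1 with a score of 47. The highest score in a single list was 104 in replicate 2, for the member 1290 bp upstream of Pde7a, a phosphodiesterase. Of the 41, 27 were called in replicate 2 alone, a share near the 67.7% over all members.

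Of the 7 genes with 2 members, 3 had both at the same TSS and 4 at different start sites of the gene. At Ncor1, which encodes a nuclear receptor corepressor, a member 1927 bp downstream of a TSS was called in replicate 1 (score 50) and one 1627 bp upstream of another TSS in replicate 2 (score 30). Synj2 had an upstream member in both replicates (scores 17 and 66) and a downstream one in replicate 1 (score 15). At Loxl1, a lysyl oxidase, the member at 1538 bp was called in replicate 1 (score 21) and that at 1064 bp in replicate 2 (score 33). For none of the 7 genes were both members covered in both replicates.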
